A study of Mus musculus with 2 samples.

Results

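Of the 10 genes of arginine metabolism and alternative activation examined in resting macrophages, 2 carried strong H3K4me3 at the promoter, 2 carried a weak mark and 6 had no peak within 10 kb of any annotated start. By the same rules 23.8% of all protein-coding genes were strong, 29.8% were weak and 41.1% had no peak within 10 kb. The weak mark of Arg1 was present in replicate 1 alone. The 10 genes were Arg1, Arg2, Nos2, Il4ra, Tgm2, Mrc1, Retnla, Chil3, Ccl17 and Ccl22, out of 21938 protein-coding genes of GENCODE release M21. They were chosen by name, and their peaks were all those that lay within 10 kb of any of their annotated transcript starts.

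Trimethylation of histone H3 at lysine 4 (H3K4me3) was measured by ChIP-seq, the sequencing of DNA pulled down with an antibody to the mark, in primary macrophages grown from bone marrow. The cells came from C57BL/6J mice, were given no stimulus and formed the only group, with 2 biological replicates of 10 ng of DNA each and no genetic change in the labels. The labels give age as unknown and sex as not collected, and both replicates carry the same donor entry, so it is not known whether they came from separate animals and their spread may be technical. No other condition was measured, and no comparison between conditions or test over samples could be made.

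In macrophages different enzymes compete for arginine. Nitric oxide synthase, which is switched on by microbial products and interferon, turns arginine into nitric oxide and citrulline, whereas arginase turns it into ornithine and urea. The cytokines IL-4 and IL-13 bind receptors that contain the IL-4 receptor alpha chain and act through the transcription factor STAT6. In mouse macrophages they raise arginase 1 together with a set of secreted and surface proteins that mark alternative activation. H3K4me3 lies around the starts of active genes and of many genes that are ready for use, most of all where the promoter is rich in CpG.

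Replicate 1 had 20031 peaks over 25.5 Mb and replicate 2 had 16376 peaks over 17.8 Mb. The authors' list from the pooled alignments had 18898 peaks and their replicated list had 16957. Each peak carries a fold assigned by the authors, whose denominator the lists do not state. The fold ranks peaks within a list and was not compared as a level between lists. Only the ratio of its values in replicates 1 and 2 was used, and each gene's ratio was set against that of other genes. The median of the highest promoter fold over marked protein-coding genes was 37.37 in replicate 1 and 14.88 in replicate 2. Read counts are not part of the lists, so depth is unknown. The labelled cell type was compared with its markers. A promoter peak in both replicates was present at 8 of 8 macrophage genes, Csf1r, Adgre1, Spi1 and Cd68 among them, against 49.5% of all protein-coding genes. By the classes defined below, 4 of the 8 were strong and 4 weak. The promoter window of Itgam, among the 8, also holds the start of Gm49368. A promoter peak in both replicates was present at 0 of 28 marker genes of neutrophils, dendritic cells, eosinophils, mast cells and basophils, T cells, B cells and fibroblasts. Of these 28 only Zbtb46, a transcription factor gene of dendritic cells, had a promoter peak, with a fold of 3.74 in replicate 1 and none in replicate 2. A further 7 of the 28 had a peak within 10 kb but none at a promoter. All markers were chosen with earlier results of these data known, so the comparison is not an independent check.

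A promoter peak was a peak that overlapped the 1000 bp on either side of any annotated start. The mark was called strong where the highest promoter fold was at or above the median of all marked protein-coding genes in both replicates. It was called weak where a promoter peak was present in at least 1 replicate without reaching that level in both, so a weak mark here includes genes just under the median. By these rules 3 of the 10 genes, Il4ra, Mrc1 and Tgm2, had a promoter peak in both replicates, against 49.5% of all protein-coding genes. In the list of replicate 1 alone 4 had a promoter peak, against 53.5% of all, and in that of replicate 2 the number was 3, against 49.5% of all. The authors' pooled list held 4, against 52.7% of all, and their replicated list 3, against 51.3% of all. Arg1 had a promoter peak in replicate 1 and not in replicate 2, a state shared by 4.00% of all protein-coding genes. The same 3 genes were those with a peak within 10 kb in both replicates, against 54.4% of all, and with Arg1 there were 4 with a peak within 10 kb in at least 1 replicate, against 58.9%. The remaining 6 genes had no peak within 10 kb in either replicate, which held for 41.1% of all protein-coding genes. The strong class held 2 of the 10, against 23.8% of all, and the weak class 2, against 29.8% of all. With the upper quartile as the limit only Il4ra was strong, and with the centre of the peak required in the window Tgm2 alone kept a promoter peak in both replicates, since the peaks of Il4ra and Mrc1 lay mostly downstream. None of these shares was tested, since the genes were chosen by name with earlier results known.

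**Figure D1:**
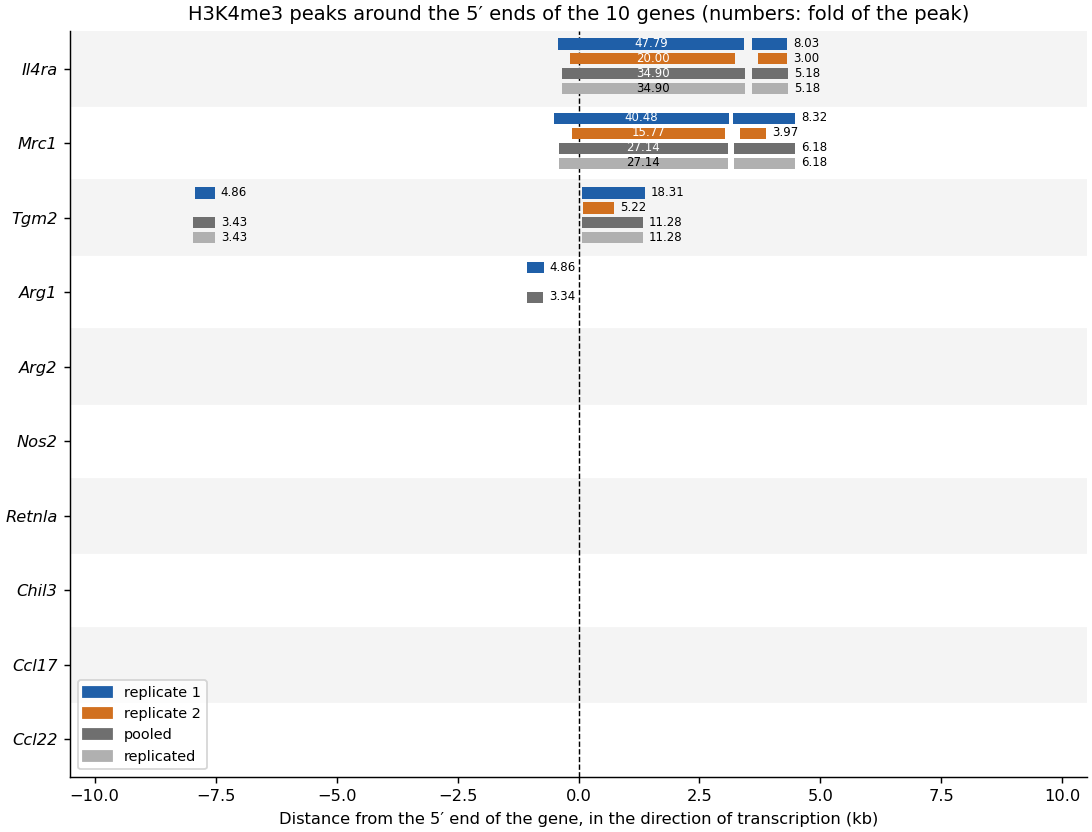
Peaks of replicate 1, replicate 2, the pooled list and the replicated list (bars) around the 5′ end of each of the 10 genes, with distance in kb along the direction of transcription and the fold of each peak printed in or beside its bar. Il4ra and Mrc1 have a wide peak that begins just upstream of the 5′ end and a further small peak inside the gene, Tgm2 has a short peak that begins downstream of the 5′ end, Arg1 has a short peak upstream of it, and the other 6 genes have none.

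Il4ra, which encodes the alpha chain shared by the receptors for IL-4 and IL-13, had the highest fold of the 10 genes. On mm10 the gene lies at chr7:125552120-125579474 on the plus strand. Its promoter peak had a fold of 47.79 in replicate 1, where it ran over chr7:125551692-125555549, and of 20.00 in replicate 2, where it ran over chr7:125551951-125555358. In replicate 1, 76.8% of marked protein-coding genes had a lower fold, and in replicate 2, 79.7% did. The authors' pooled and replicated lists both gave it a fold of 34.90. The peak was 3858 and 3408 bp wide and covered all 4 annotated starts in both replicates. Most of it was intronic, with 83.5% of its length in introns in replicate 1 and 88.9% in replicate 2. The only exonic sequence under it was 209 bp of untranslated region. A further peak lay wholly in an intron, 3420 bp from the nearest start in replicate 1 and 3538 bp in replicate 2, with folds of 8.03 and 3.0.

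Mrc1, which encodes the mannose receptor CD206, a lectin that takes up glycoproteins and is raised by IL-4 in mouse macrophages, came next. It lies at chr2:14229392-14332057 on the plus strand. The promoter peak had a fold of 40.48 in replicate 1, at chr2:14228889-14232495, and of 15.77 in replicate 2, at chr2:14229259-14232414. These folds stood just above the medians of 37.37 and 14.88, with 57.5% of marked protein-coding genes lower in replicate 1 and 55.0% in replicate 2. Both of the authors' joint lists gave a fold of 27.14. A second, intronic peak followed 3194 bp from the start with a fold of 8.32 in replicate 1 and 3347 bp from it with a fold of 3.97 in replicate 2. The other annotated start of Mrc1, a retained-intron transcript near the end of the gene, had no peak within 10 kb.

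At both genes the mark was wide among marked protein-coding genes and lay mostly downstream of the 5′ end. When peaks within 1000 bp of each other were joined, the Il4ra domain measured 4738 bp in replicate 1 and 4482 bp in replicate 2, a mean of 4610 ± 181 bp (SD, n = 2). The Mrc1 domain measured 4986 and 4008 bp, a mean of 4497 ± 691.6 bp (SD, n = 2). The median domain of marked protein-coding genes was 2067 bp in replicate 1 and 1741 bp in replicate 2. Narrower domains were found at 96.4% of these genes in replicate 1 and 98.0% in replicate 2 for Il4ra, and at 97.2% and 96.9% for Mrc1. From the 5′ end the main peak reached 3429 bp downstream and 428 bp upstream at Il4ra in replicate 1, and 3238 and 169 bp in replicate 2. At Mrc1 it reached 3103 bp downstream and 503 bp upstream in replicate 1, and 3022 and 133 bp in replicate 2. Over the 6421 protein-coding genes whose strongest promoter peak covered the 5′ end in replicate 1, the median reach was 1197 bp downstream and 593 bp upstream. Over the 4461 such genes in replicate 2 it was 1018 and 467 bp. The downstream reach of Il4ra exceeded that of 97.9% of these genes in replicate 1 and 98.8% in replicate 2, and that of Mrc1 96.9% and 98.3%, while their upstream reach exceeded 23.7 to 42.0%. A further peak between 1 and 10 kb from the starts, as at both genes, was present at 30.8% of marked protein-coding genes in replicate 1 and 25.8% in replicate 2.

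**Figure D2:**
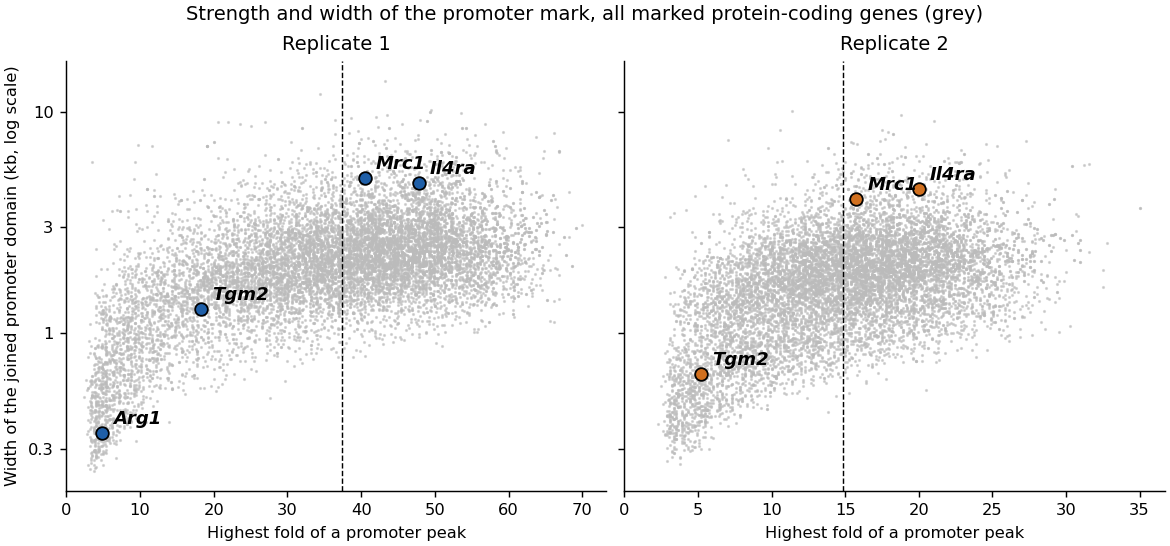
Highest fold of a promoter peak (x axis) and width of the joined promoter domain in kb (y axis, log scale) for all marked protein-coding genes (grey points), with the marked genes among the 10 as large points, in replicate 1 (left) and replicate 2 (right). The dashed line is the median fold, 37.37 in replicate 1 and 14.88 in replicate 2: Il4ra and Mrc1 lie right of it and near the top, Tgm2 lies left of it in both replicates, and Arg1 is at the lower left in replicate 1 and absent in replicate 2.

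The promoter sequences of these 2 genes differ in CpG, and they are shown beside those of Retnla and Ccl17, the unmarked genes whose windows hold a STAT6-type palindrome. Each line gives the 250 bases before the RefSeq start and the 50 bases from it, on GRCm38.p6, the assembly also called mm10, read 5′ to 3′ on the strand of the gene with every CpG in capitals. The RefSeq table matched 6 of the 10 genes, Il4ra, Mrc1, Retnla, Chil3, Ccl17 and Ccl22. The Il4ra window, chr7:125552021-125552320 on the plus strand, holds 25 CpG, more than 81.6% of the 32851 RefSeq promoters of this length, and that of Mrc1, chr2:14229164-14229463 on the plus strand, holds 3, more than 23.3% of them. The Retnla window, chr16:48842359-48842658 on the plus strand, holds 2 CpG and that of Ccl17, chr8:94810203-94810502 on the plus strand, holds 3. Of the unmarked genes not printed, Chil3 has 3 CpG in this window and Ccl22 has 8, more than 51.4% of RefSeq promoters and more than the marked gene Mrc1.
Il4ra: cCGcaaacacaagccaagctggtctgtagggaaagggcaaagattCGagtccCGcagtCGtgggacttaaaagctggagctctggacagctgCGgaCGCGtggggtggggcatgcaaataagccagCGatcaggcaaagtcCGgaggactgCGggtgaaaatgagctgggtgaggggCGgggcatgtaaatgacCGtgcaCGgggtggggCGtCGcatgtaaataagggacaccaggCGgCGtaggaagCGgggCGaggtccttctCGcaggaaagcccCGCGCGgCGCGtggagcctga
Mrc1: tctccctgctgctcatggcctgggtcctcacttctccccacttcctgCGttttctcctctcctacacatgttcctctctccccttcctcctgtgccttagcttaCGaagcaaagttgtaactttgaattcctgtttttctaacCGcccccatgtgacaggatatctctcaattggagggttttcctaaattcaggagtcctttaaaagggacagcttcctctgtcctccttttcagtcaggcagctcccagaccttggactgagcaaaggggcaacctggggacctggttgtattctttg
Retnla: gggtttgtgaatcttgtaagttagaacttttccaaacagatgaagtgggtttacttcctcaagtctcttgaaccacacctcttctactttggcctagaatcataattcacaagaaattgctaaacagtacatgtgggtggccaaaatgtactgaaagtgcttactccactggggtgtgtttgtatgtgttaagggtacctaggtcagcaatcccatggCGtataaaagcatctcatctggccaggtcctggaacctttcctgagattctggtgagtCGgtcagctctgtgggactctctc
Ccl17: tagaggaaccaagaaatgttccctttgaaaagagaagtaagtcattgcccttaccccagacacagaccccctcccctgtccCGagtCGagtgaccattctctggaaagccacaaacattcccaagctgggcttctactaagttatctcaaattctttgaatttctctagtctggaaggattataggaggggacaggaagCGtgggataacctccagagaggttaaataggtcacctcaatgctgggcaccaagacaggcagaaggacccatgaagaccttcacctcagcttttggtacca

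Tgm2, which encodes transglutaminase 2, a protein cross-linking enzyme raised by IL-4 in macrophages, was marked weakly. The gene lies at chr2:158116402-158146436 on the minus strand. Its promoter peak had a fold of 18.31 and a width of 1287 bp in replicate 1, at chr2:158145071-158146357, and a fold of 5.22 and a width of 653 bp in replicate 2, at chr2:158145693-158146345. In replicate 1, 17.1% of marked protein-coding genes had a lower fold, and in replicate 2, 6.02% did. The pooled and replicated lists gave it a fold of 11.28. The peak did not cover the 5′ end: it began 79 bp downstream of it in replicate 1 and 91 bp downstream in replicate 2, and 94.8% and 91.6% of its length was intronic. From the nearest of the 4 annotated starts, its edge lay 9 bp downstream in replicate 1 and 21 bp downstream in replicate 2. The Tgm2 fold also differed more between the replicates than that of most genes. The fold of replicate 1 over that of replicate 2 was 3.51 at Tgm2, 2.39 at Il4ra and 2.57 at Mrc1, against a median of 2.56 and a range of 2.14 to 3.19 from the 5th to the 95th percentile over the 10869 genes with a promoter peak in both replicates, and 98.5% of these had a lower ratio than Tgm2. A second peak lay 7511 bp upstream of the 5′ end and outside the gene in replicate 1, at chr2:158153947-158154353, with a fold of 4.86. Replicate 2 had no peak there, yet the authors' pooled and replicated lists both held it, with a fold of 3.43. It was the farthest from a start of any peak within 10 kb of the 10 genes. Of the 16957 peaks of the replicated list, 1866 likewise overlapped a peak of replicate 1 and none of replicate 2.

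Arg1, which encodes the cytosolic arginase that IL-4 raises in mouse macrophages, carried the weakest mark. The gene lies at chr10:24915221-24927484 on the minus strand. The list of replicate 1 had a peak of 353 bp with a fold of 4.86 and a −log10 p of 11.8 at chr10:24928199-24928551, wholly outside the gene, and that of replicate 2 had none within 10 kb. The near edge of the peak lay 715 bp upstream of the 5′ end, and no peak covered any of the 3 annotated starts. Of marked protein-coding genes in replicate 1, 2.17% had a lower fold and 0.851% a narrower domain. The pooled list gave the peak a fold of 3.34, and the replicated list did not hold it. The start nearest to the peak, 580 bp from it, was not that of Arg1 but that of Gm36172, annotated as a long noncoding RNA of a bidirectional promoter, so the peak cannot be assigned to Arg1 alone. In replicate 1, 2245 peaks had a fold no higher than that of the Arg1 peak, and 1.16% of them overlapped a peak of replicate 2. The nearest peak of replicate 2 lay 45.6 kb away, at the start of Med23.

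Arg2 and Nos2, the remaining arginine enzymes among the 10 genes, had no peak within 10 kb. Arg2, which encodes the mitochondrial arginase, lies at chr12:79130777-79156301 and has a single annotated start. Its nearest peak lay 40.3 kb away in replicate 1 and 40.5 kb away in replicate 2, beside the start of Vti1b, and no peak fell in the gene. Nos2, which encodes the inducible nitric oxide synthase, lies at chr11:78920787-78960254 with 3 annotated starts. Its nearest peak lay 57.1 kb away in replicate 1 and 56.9 kb away in replicate 2, at the start of Lgals9. Neither the pooled nor the replicated list held a peak within 10 kb of either gene, so none of the 4 lists showed the mark at Nos2 or Arg2.

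The 4 genes of secreted proteins among the 10 had no peak within 10 kb either. Retnla encodes the resistin-like protein also known as FIZZ1, and Chil3 the chitinase-like protein also known as Ym1. Retnla, at chr16:48842551-48844461, was 149.9 kb from the nearest peak in replicate 1 and 150.0 kb in replicate 2. Chil3, at chr3:106147554-106167564, was 145.5 kb from it in replicate 1 and 145.6 kb in replicate 2. Chil3 has a close paralog in Chil4, and how reads that fit both were handled is not given in the sources used here, so the absence of a peak at Chil3 is uncertain. Ccl17 and Ccl22, which encode ligands of the chemokine receptor CCR4, lie on chromosome 8 at chr8:94810453-94812036 and chr8:94745590-94751699. The nearest peak to Ccl17 lay 26.6 kb away in replicate 1 and 26.9 kb away in replicate 2, at the start of Ciapin1. That to Ccl22 lay 26.3 kb away in replicate 1, a peak of fold 4.30 at the start of the chemokine gene Cx3cl1, and 40.7 kb away in replicate 2. Over the 6 unmarked genes the distance to the nearest peak ran over 26.3 to 149.9 kb in replicate 1, with a median of 48.7 kb, and over 26.9 to 150.0 kb in replicate 2, with a median of 48.8 kb. The median over all 9023 protein-coding genes with no peak within 10 kb was 108.3 kb in replicate 1 and 125.7 kb in replicate 2.

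Over a wider window the CpG ratio was higher at the 4 genes with a peak than at 5 of the 6 without. The CpG counts of the 300-base windows did not show this order for Mrc1. Its 3 CpG were fewer than the 8 of Ccl22 and equal to those of Ccl17 and Chil3. Tgm2 and Arg1 had no such window. In the window from 1000 bp before to 1000 bp after the 5′ end, the CpG observed/expected ratio was 0.414 at Il4ra, 0.361 at Tgm2, 0.336 at Arg1 and 0.326 at Mrc1. Among the unmarked genes it was 0.231 at Ccl22, 0.176 at Nos2, 0.147 at Ccl17, 0.0695 at Retnla and 0.061 at Chil3, all below the 4 genes with a peak. Arg2 was the exception, with the highest ratio of the 10 genes, 0.555, and no peak. Of all protein-coding genes in its decile of the ratio, 67.5% had a promoter peak in both replicates, whereas 4.19% did in the decile of Retnla and Chil3, 9.89% in that of Ccl17 and 18.1% in that of Nos2 and Ccl22. Mrc1 and Arg1 shared a decile in which 27.2% of genes were marked in both replicates. Among the 596 marked genes of that decile, 66.6% had a lower fold than Mrc1 in each replicate. Il4ra and Tgm2 shared a decile with 50.4% marked. There Il4ra exceeded the fold of 75.6% of the 1105 marked genes in replicate 1 and 80.7% in replicate 2, and Tgm2 that of 13.6% and 8.69%.

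**Figure D3:**
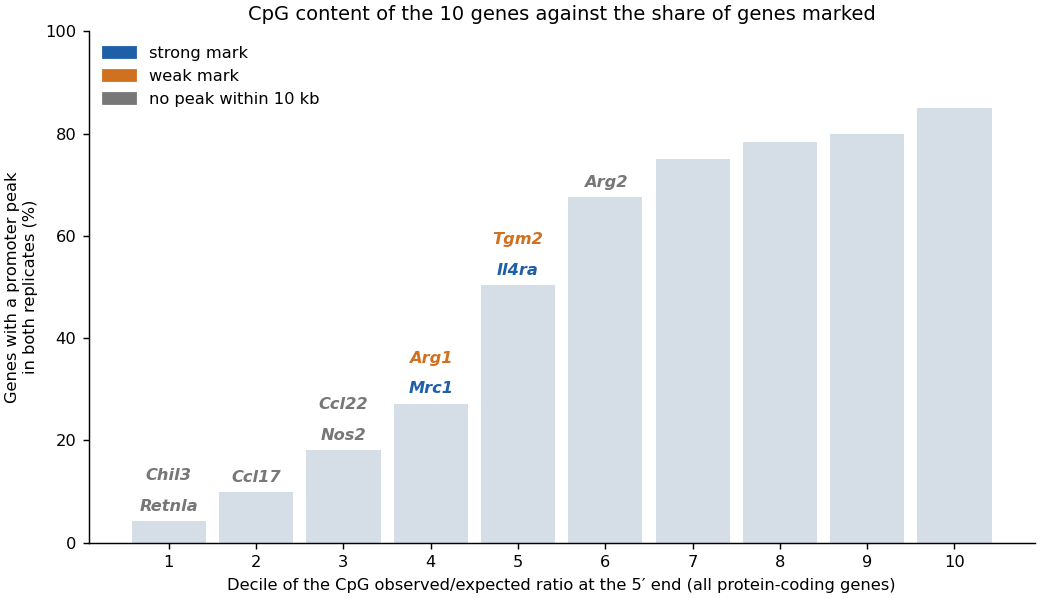
Share of protein-coding genes with a promoter peak in both replicates (bars, in percent) in each decile of the CpG observed/expected ratio at the 5′ end, with the names of the 10 genes above the decile they belong to and coloured by their mark. Unmarked genes (grey) fall in the 3 lowest deciles except Arg2, which lies in a decile where 67.5% of genes are marked.

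Short motifs were looked for on both strands of the 6 matched RefSeq promoters, and a position is that of the first base of the match relative to the RefSeq start. The STAT6-type palindrome, TTC and GAA separated by 4 bases, was present in Retnla, 145 bp before the start, and in Ccl17, 154 bp before it, and 6.95% of all RefSeq promoters of this length hold it. The palindrome with 3 bases between them, present in 8.30% of all, was found in Ccl17 at 99 bp and Chil3 at 172 bp before the start. The letters TATAAA, present in 13.6% of all, were found in Retnla at 30 bp and Chil3 at 3 bp before the start, and GAGGAAGT, a PU.1-type site present in 3.20% of all, in Retnla at 198 bp before it. The windows of Il4ra, Mrc1 and Ccl22 held none of these letters. A match describes the letters only, and nothing about binding was measured.

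The genes around these 10 were read from lists chosen by function. Of 10 genes of IL-4 and IL-13 signalling, 8 were marked in both replicates, 1 in replicate 1 alone and 1 in neither, against 49.5% of all protein-coding genes marked in both. By class, 3 of the 10 were strong and 6 were weak. The promoter window of Il2rg, marked in both, also holds the start of Gm20489. Irs2 had the lowest folds of those marked in both, 11.77 in replicate 1 and 4.96 in replicate 2. Stat6, the transcription factor gene of the pathway, had folds of 56.42 in replicate 1 and 24.80 in replicate 2. Ptpn6, which encodes the phosphatase SHP-1, had 61.47 and 21.92, and the kinase gene Tyk2 had 53.43 and 20.88. Il13ra1, whose product pairs with the Il4ra chain to bind IL-13, had a fold of 7.85 in replicate 1 and no peak in replicate 2. Il13ra2, the decoy receptor gene, had no promoter peak in either.

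Of 18 genes of arginine, citrulline and polyamine metabolism, 16 were marked in both replicates, 1 in replicate 1 alone and 1 in neither. The share marked in both was 88.9%, against 49.5% of all protein-coding genes. Most of these marks were weak, as 4 of the 18 genes were in the strong class and 13 in the weak class. Slc7a7 had the lowest folds of those marked in both, 7.29 in replicate 1 and 3.13 in replicate 2. Slc3a2, the heavy chain gene of several amino acid transporters, had folds of 50.63 and 21.54 in replicates 1 and 2, the arginine transporter gene Slc7a1 had 38.30 and 16.05, and Oaz1, whose product antizyme inhibits ornithine decarboxylase, had 38.48 and 16.06. The genes that rebuild arginine from citrulline were marked too, with folds of 22.05 and 8.35 at Ass1 and 38.69 and 15.74 at Asl, whose window also holds the start of Crcp. Odc1, which encodes ornithine decarboxylase and uses the product of arginase, had 35.50 and 13.31. Gatm, whose product transfers the amidino group of arginine to glycine, had 32.51 and 8.74. Slc7a2, a further arginine transporter gene, had 4.30 in replicate 1 and no peak in replicate 2, and Agmat, which encodes agmatinase, had no promoter peak. Arg1, Arg2 and Nos2, which draw on the same arginine, thus had either a fold of 4.86 in replicate 1 alone or no peak.

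Of 20 further targets and regulators of alternative activation, 9 were marked in both replicates, 4 in replicate 1 alone and 7 in neither. The share marked in both, 45.0%, was near the 49.5% of all protein-coding genes. The highest folds were at the transcription factor genes Myc, Pparg and Klf4. In replicates 1 and 2 they were 45.77 and 18.01 at Myc, 41.59 and 16.89 at Pparg and 34.00 and 13.05 at Klf4. Myc and Pparg were strong and Klf4 was weak. The other transcription factor genes Egr2, with 25.97 and 10.44, and Irf4, with 20.36 and 6.0, were weak. Both had lower folds than Cd163, with 27.84 and 10.70. Among genes of secreted proteins in this list, F13a1, which encodes a coagulation factor subunit, had folds of 8.78 and 3.0 in replicates 1 and 2, while the fibronectin gene Fn1 had 8.97 and the IL-1 receptor antagonist gene Il1rn 4.30 in replicate 1 alone. Alox15, which encodes a lipoxygenase, the chemokine gene Ccl24 and Cdh1, which encodes E-cadherin, had no promoter peak, with Pdcd1lg2, Mgl2, Flt1 and Ear2. By fold and joined domain width in both replicates, the gene of the 4 related lists, cell type markers not included, that was closest to Il4ra and to Mrc1 was Myc, at Euclidean distances of 0.53 and 0.65 over these 4 log2 values, and the closest to Tgm2 was Ddah2, at 0.44. The order of fold and width rests on 2 libraries, and these likenesses are descriptions.

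The 15 listed paralogs of the 10 genes were mostly unmarked. Of 15, 0 were marked in both replicates, 2 in replicate 1 alone and 13 in neither. Of all protein-coding genes 49.5% were marked in both and 4.00% in replicate 1 alone. Tgm1 and Cx3cl1 each had a fold of 4.30 in replicate 1 and no peak in replicate 2. Nos1 and Nos3, the neuronal and endothelial synthase genes, had none, nor did Chil4, Chia1, Ccl1 or Mrc2. Ccl1 was the only Ccl gene in this list, so its counts do not describe that chemokine family. Outside the list, Ccl2, Ccl3, Ccl4, Ccl6, Ccl7, Ccl9 and Ccl25 had a promoter peak in both replicates. Ccl27a had a promoter peak in replicate 1 alone, and Ccl24 had none. At Chil4 the absence is uncertain, as at Chil3, since reads may fit both genes. The same limit holds for any other unmarked gene or marker with a close paralog.

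**Figure D4:**
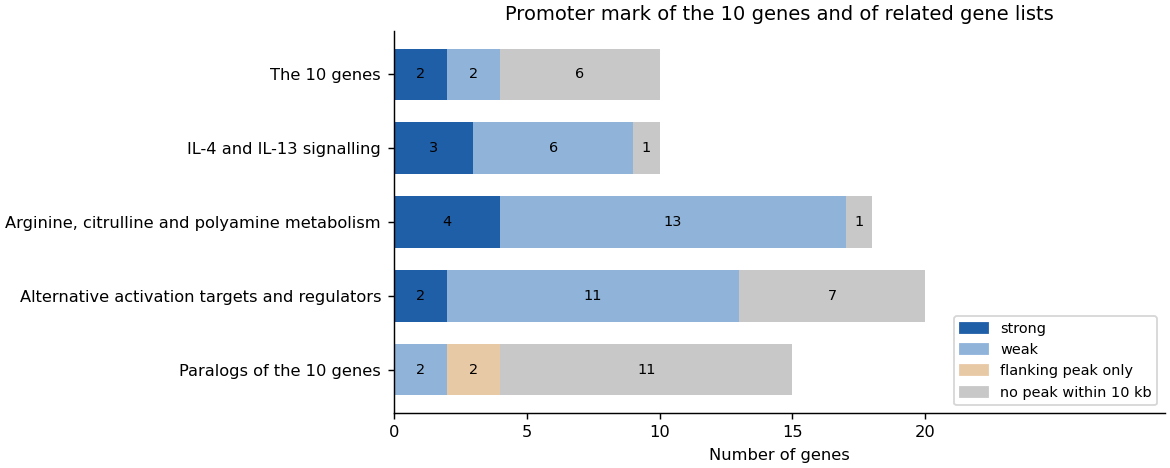
Number of genes with a strong mark, a weak mark, a flanking peak only or no peak within 10 kb, for the 10 genes and for 4 related lists (one bar each). The 10 genes split into 2 strong, 2 weak and 6 without a peak, the signalling and the arginine and polyamine lists each hold 1 gene without a peak within 10 kb, and the list of paralogs holds 11 of 15 without a peak.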

How the data were processed

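H3K4me3 peak lists of 2 replicates and 2 series-level lists were used. Per the labels, the assembly was mm10. Per the texts deposited beside the lists, the authors made peaks on the alignments of each replicate, on both together (pooled) and as a replicated list. The peak caller is not given in the sources used here. Each deposited peak carries a fold (a ratio), a −log10 p and the offset of its summit, used as the authors gave them. Read counts were not analysed here, so depth and its precision are unknown.

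GENCODE release M21 gave the transcript starts on 21 chromosomes, and 0 peak ends lay beyond a chromosome of GRCm38.p6. Overlap required 1 bp. Python 3.11.15 with numpy 2.4.6 was used, and the overlap search was tested on simulated data. Promoter sequences are from RefSeq on GRCm38.p6.

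The 10 genes, the 4 related lists and the markers were chosen with earlier results of these data known, and all results are descriptions without tests. The text names the 10 genes, from each list up to 3 genes of highest mean rank of fold and up to 3 without a promoter peak, the gene closest to each marked gene and the starts nearest to peaks. Promoter peaks overlapped the 1000 bp around a start, and peaks within 1000 bp of each other were joined into domains. Other named genes were chosen after their values were seen. The alternatives tried were other windows, starts, peak thresholds, overlaps, lists, strength measures and joining gaps, and leaving out each replicate.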

Additional observations from a re-analysis of the deposited data

How the results depend on the processing

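Of 42 alternative values of the counts, 39 stayed within 1.5 times the reported count. For a reported count of 2 or 3, a gain of 1 gene stays within this limit, so it says little about the small counts. With the centre of the peak required within 1000 bp of a start, 1 of the 10 genes, Tgm2, had a promoter peak in both replicates in place of 3, since the peak centres of Il4ra lay 1500 and 1534 bp and those of Mrc1 1300 and 1444 bp downstream of the 5′ end. With the upper quartile in place of the median as the limit of a strong mark, 1 gene, Il4ra, was strong and Mrc1 was weak. The weak class held 1 gene without replicate 1, namely Tgm2, and 2 without replicate 2, as Arg1 had a peak in replicate 1 only. The number of genes with a promoter peak ran from 3 to 4 on leaving out a replicate, and likewise with the pooled list, which adds Arg1. With each replicate limited to its 15000 most significant peaks by −log10 p, the same 3 genes, Il4ra, Mrc1 and Tgm2, were marked in both. Without joining of neighbouring peaks the mean domain was 3633 bp at Il4ra and 3381.5 bp at Mrc1. Related-list genes with a promoter peak in both replicates numbered 33 of 63, and 28 to 41 over the alternatives. The 33 are 52.4%, near the 49.5% of all protein-coding genes. No paired analysis was possible because there is 1 group. Since the lists hold only peaks past the authors' threshold, a gene without a peak may carry a mark below it.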

Other observations

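The peak of Arg1 and the upstream peak of Tgm2 had the same fold, 4.86, and the same −log10 p, 11.8, in replicate 1, and 160 peaks of that list share both values to the last digit. The order of weak peaks by fold therefore includes ties.

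Ccl22, Cx3cl1 and Ccl17 lie together on chromosome 8. In replicate 1 Cx3cl1 had a promoter peak of fold 4.30 and a width of 673 bp while its neighbours had none, and in replicate 2 none of these genes had one. The resistin-like genes Retnlg and Retnlb likewise had no promoter peak, and the nearest peaks of replicate 1 lay 119821 and 175586 bp from their starts. Retn and Chil1, relatives of Retnla and Chil3, had no promoter peak either but lay 6646 and 6442 bp from a peak of replicate 1.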
